A study of Mus musculus with 6 samples.

Results

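The genes described here carry sulfur from methionine to glutathione, and were grouped around Cth, the enzyme that releases cysteine from cystathionine. The list held 10 genes: Mtr, Mat2a, Mat2b, Ahcy, Cbs, Cth, Slc7a11, Gclc, Gclm and Gss. A probe set counted as a member when the platform annotation gave it exactly 1 gene symbol and that symbol was on the list. This held for 8 genes with 1 probe set each, so 8 of the 23344 probe sets, and 8 of the 19308 genes named by them, were members. Ahcy is on 2 probe sets that carry several symbols and Mat2a has none with exactly 1 symbol, so the levels of both were not analysed here. The group was chosen by the difference of Cth between the cell types, which ranked 6 of 23344 by size, and the other genes were added by function with these results known. The differences of the members are therefore given as a description, with no p-value, and nothing is inferred from how many of them passed a threshold.

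The study compared 2 kinds of reprogrammed mouse cells with 3 Affymetrix arrays each. One was induced pluripotent stem (iPS) cells and the other was embryonic stem cells derived by nuclear transfer (ntES), both from tail tip fibroblasts of G3 Terc-/- mice. Those mice lack the RNA of telomerase and are of generation 3, so all 6 arrays come from cells with this deletion, and no array of cells with Terc was analysed here. All cells grew on mouse embryonic fibroblasts that mitomycin C had stopped from dividing, no treatment is named, and the labels give no age. The design text speaks of biological repeats of each cell line. It is not clear from the labels whether a group is 1 line or several, so line and method cannot be told apart. P-values measure only the spread between these samples, which may be cultures of 1 line.

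In the methionine cycle, methionine is turned into S-adenosylmethionine, the methyl donor of the cell, and its remnant homocysteine is either methylated back to methionine or passed on. The branch that passes it on, transsulfuration, joins homocysteine to serine and then splits off cysteine, which cells can also take up as cystine. Glutathione, the main soluble thiol of cells, is built from glutamate, cysteine and glycine. Pluripotent cells are known to draw heavily on S-adenosylmethionine for the methylation of histones.

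All values are the deposited log2 expression values, and a difference is ntES minus iPS, so that a difference of 1 stands for a 2-fold higher level in ntES cells. Errors are standard deviations over 3 arrays (SD) or standard errors of the difference from the limma fit over all probe sets (SE). An adjusted p under 0.05 counted as a call. By this rule 2643 of 23344 probe sets, or 11.3%, were called, 1212 higher (5.19%) and 1431 lower (6.13%) in ntES cells. With each array centred on its median the split was 823 higher and 1911 lower. The arrays had medians of 7.61 to 7.70, while their SD over probe sets was lowest on ntES replicate 1, at 1.51, and highest on ntES replicate 3, at 1.74. All 18 measured pluripotency markers lay above the array median on every array, with a mean log2 level of 10.83 to 11.03 on iPS and 10.63 to 11.02 on ntES arrays. Their median difference was -0.15, with 7 above 0, and 4 were called lower in ntES cells, which were Esrrb (-0.79), Gdf3 (-0.69), Zfp42 (-0.49) and Klf4 (-0.47), named after their values were seen. Of 39 fibroblast and feeder markers 34 also lay above that median on every array, and their mean log2 level was 9.90 to 10.19 on iPS and 10.15 to 10.46 on ntES arrays. Of these 39 markers 36 had a difference above 0, 10 were called higher and 1 lower in ntES cells, and the part of either marker list in the results on single genes was not tested. In such whole cultures, fewer cells of a type and less RNA per cell cannot be told apart.

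Cth stood far apart from the other members: it was 4.70-fold higher in ntES cells, while no other member differed by more than 1.45-fold. Of the other 7, Mtr, methionine synthase, was the only further member called. Gclm, the modifier subunit of the first enzyme of glutathione synthesis, was lower on all 3 ntES arrays without being called. Cbs and Gss were slightly higher on all 3 ntES arrays, and Mat2b, Slc7a11 and Gclc overlapped between the groups. Both called members were higher, 2 of 8, beside 5.19% of all probe sets called higher, and none was called lower, beside 6.13%. Nothing is read from this count, since the list was drawn up on this comparison.

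**Figure D1:**
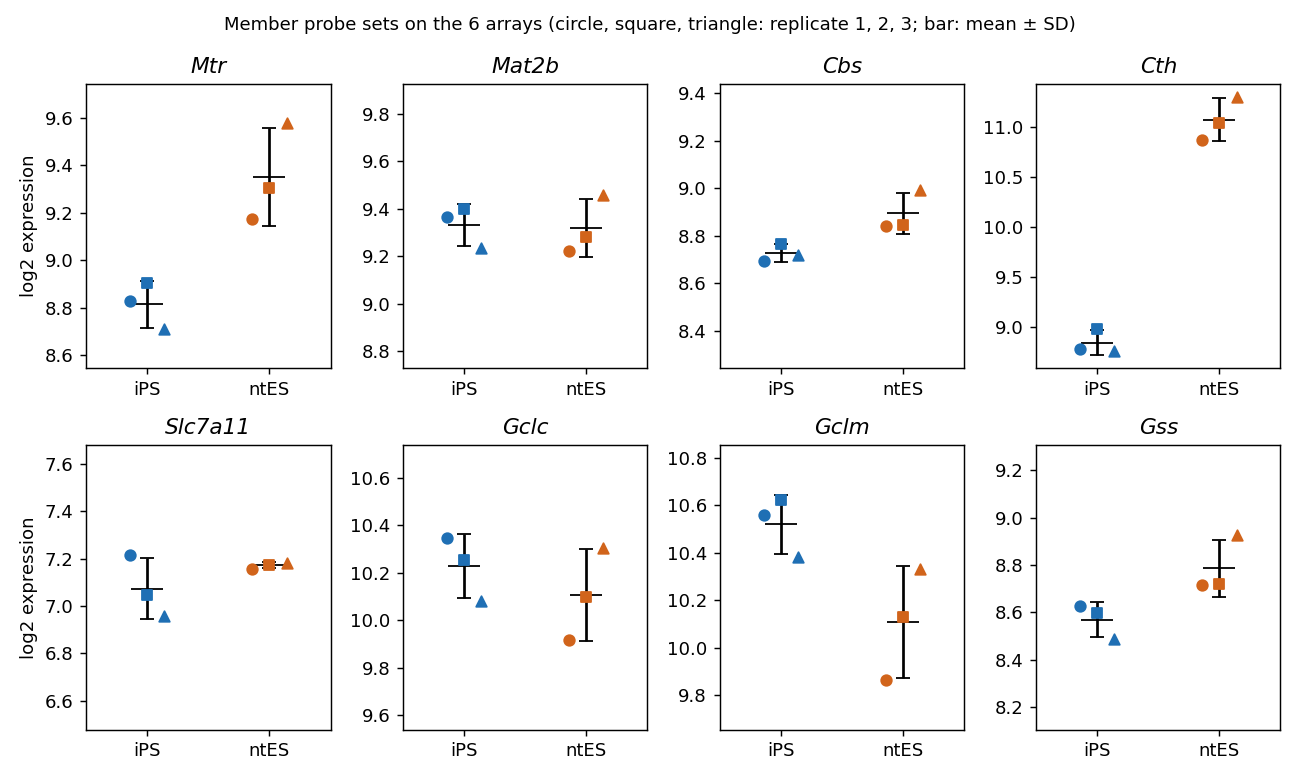
Deposited log2 expression (vertical axes, each panel with its own range) of the 8 member probe sets on 3 iPS (blue) and 3 ntES (orange) arrays, with the marker shape giving the replicate and the bar the mean ± SD. Cth lies between 8.75 and 8.98 on iPS arrays and between 10.87 and 11.30 on ntES arrays, and the ntES values of every member are highest on replicate 3.

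On the methionine side, Mtr moves a methyl group from folate to homocysteine and so restores methionine. Mtr read 8.83, 8.91 and 8.71 on the iPS arrays and 9.17, 9.30 and 9.58 on the ntES arrays. The lowest ntES array lay 0.27 above the highest iPS array. The difference was 0.54 ± 0.11 (log2, SE), or 1.45-fold, with a 95% interval of 0.29 to 0.78. Mtr was not called without iPS replicate 1 (0.54) or without ntES replicate 2 (0.56), nor with the unmoderated test. Mat2b is the regulatory subunit of the enzyme that makes S-adenosylmethionine in most tissues. Mat2b read 9.37, 9.40 and 9.23 on iPS and 9.22, 9.28 and 9.46 on ntES arrays. Its ntES values span the iPS values, and the difference was -0.01 ± 0.09 (log2, SE), with a 95% interval of -0.21 to 0.19 and the opposite sign, 0.04, after quantile normalization.

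In transsulfuration, Cbs joins homocysteine and serine to cystathionine, and Cth then cleaves cystathionine. Cbs read 8.69, 8.77 and 8.72 on iPS and 8.84, 8.85 and 8.99 on ntES arrays. All 3 ntES arrays lay above all 3 iPS arrays, by a gap of 0.08, and the difference of 0.17 ± 0.08 (log2, SE; 95% interval -0.01 to 0.35) was not called. Cth read 8.78, 8.98 and 8.75 on iPS and 10.87, 11.04 and 11.30 on ntES arrays. The gap between the groups, 1.89, was many times the SD within either group (0.12 and 0.22). The difference was 2.23 ± 0.12 (log2, SE), a 4.70-fold higher level with a 95% interval of 3.93-fold to 5.62-fold. It lay between 2.12 and 2.33 when any 1 array was left out. The paired steps of the same branch had differences of 0.17 and 2.23.

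Slc7a11 is the transport subunit of the exchanger that takes up cystine and releases glutamate. Slc7a11 read 7.21, 7.05 and 6.96 on iPS and 7.16, 7.18 and 7.18 on ntES arrays. The ntES values lie within the range of the iPS values, and the difference was 0.10 ± 0.09 (log2, SE), with a 95% interval of -0.10 to 0.29. This probe set lay below the median of all probe sets by mean level, where background in the signal can make fold changes too small, which was not tested. Of the called list genes named below, Bhmt, Bhmt2, Mpst, Slc1a1 and Cbr3 also lay below that median.

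Glutamate-cysteine ligase, the rate-limiting enzyme of glutathione synthesis, has a catalytic subunit, Gclc, and a modifier subunit, Gclm, that makes it more efficient. Gclc read 10.35, 10.25 and 10.08 on iPS and 9.92, 10.10 and 10.30 on ntES arrays. The groups overlap, and the difference was -0.12 ± 0.11 (log2, SE; 95% interval -0.37 to 0.13). Gclm read 10.56, 10.62 and 10.38 on iPS and 9.86, 10.13 and 10.33 on ntES arrays. Every ntES value lay below every iPS value, but the gap was only 0.05. The difference of -0.41 ± 0.12 (log2, SE; 95% interval -0.68 to -0.14) was not called, while in 8 of 14 alternative fits, quantile normalization and the replicate block among them, it was. Gss, which adds glycine in the last step, read 8.63, 8.60 and 8.49 on iPS and 8.72, 8.72 and 8.93 on ntES arrays. All ntES values were above all iPS values by a gap of 0.09, and the difference of 0.22 ± 0.09 (log2, SE; 95% interval 0.02 to 0.41) was not called. In all, 5 of the 8 members did not overlap between the groups, beside 26.5% of all probe sets.

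Most members moved alike from array to array within a group. All 8 were highest on replicate 3 among the ntES arrays, where 47.2% of all probe sets were highest. For Slc7a11 the values on ntES replicates 2 and 3 were close, at 7.175 and 7.183. None was highest on replicate 3 among the iPS arrays, where 35.3% of all probe sets were. Replicate 3 is the ntES array with the widest and the iPS array with the narrowest spread of values. After quantile normalization, which gives all arrays one distribution, 3 of 8 members were highest on ntES replicate 3. Cth then read 8.72, 8.92 and 8.81 on iPS and 11.08, 11.05 and 11.10 on ntES arrays, with a difference of 2.26 ± 0.06 (log2, SE). The SD of Gclm over the ntES arrays went from 0.24 to 0.05, and its difference was -0.37 ± 0.04. On this scale 5 of 8 members were called, Mtr, Cbs, Cth and Gss as higher and Gclm as lower in ntES cells. Calls over all probe sets also rose on this scale, by the counts given in the last section. Nothing is read from the rise among the members. The Slc7a11 difference moved from 0.10 to 0.002.

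**Figure D2:**
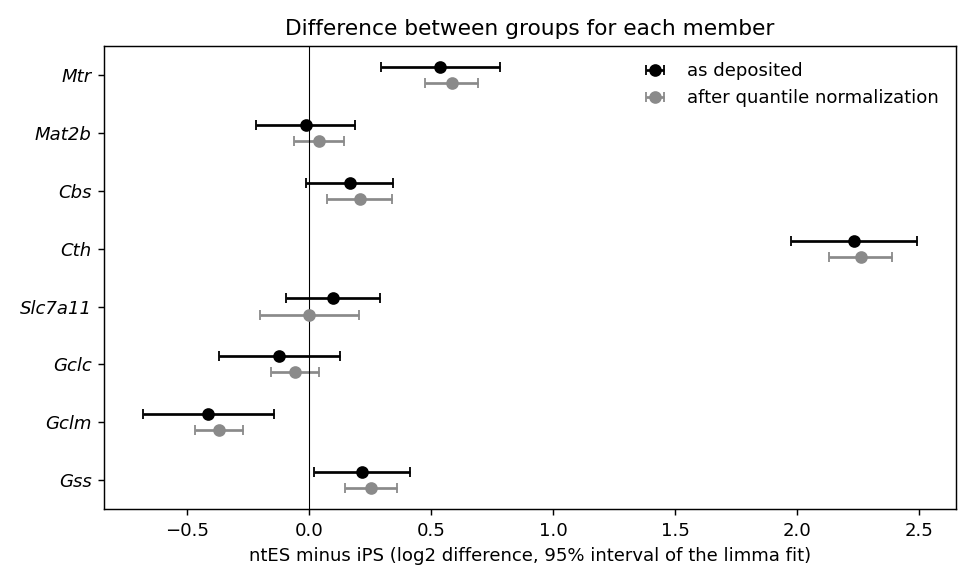
Difference between ntES and iPS cells (horizontal axis, log2) of the 8 members, with the 95% interval of the limma fit, from the deposited values (black) and after quantile normalization (grey). Cth lies at 2.23 and 2.26, Mtr at 0.54 and 0.58 and Gclm at -0.41 and -0.37, and the intervals of Mat2b, Slc7a11 and Gclc span 0 on both scales.

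Promoter sequences were searched for the 10 listed genes. The RefSeq table (GRCm38.p6), with 250 bases before to 50 after a gene's start, had 8 of the 10 genes. Mat2a and Ahcy, which had no member probe set, were among these 8, while Cth and Gclc were not matched. TGATGNAA, the core to which Atf4, the transcription factor of amino acid shortage, binds with its partners, was searched on both strands. It matched 1 of the 8 promoters, that of Slc7a11, which holds it 2 times, and 3.97% of 32851 promoters of this length. TGACNNNGC, the core bound by Nrf2, the factor of the oxidant response, matched that of Gclm, 1 of 8, and 12.4% of the 32851 promoters. GGGCGG, the box bound by Sp1, matched 7 of the 8, all but Slc7a11, and 35.7% of all. These 7 promoters held 52.7% to 79.7% G and C, that of Slc7a11 44.7%, and the median promoter 52.7%. This box is made of G and C only, and the part of base composition in its matches was not tested. A match is a string of letters and no proof of binding. The promoters of Slc7a11 (chr3:50443564-50443863, minus strand) and Gclm (chr3:122245307-122245606, plus strand) are printed because they hold the Atf4 and the Nrf2 core, with matches to those cores in capitals.
Slc7a11: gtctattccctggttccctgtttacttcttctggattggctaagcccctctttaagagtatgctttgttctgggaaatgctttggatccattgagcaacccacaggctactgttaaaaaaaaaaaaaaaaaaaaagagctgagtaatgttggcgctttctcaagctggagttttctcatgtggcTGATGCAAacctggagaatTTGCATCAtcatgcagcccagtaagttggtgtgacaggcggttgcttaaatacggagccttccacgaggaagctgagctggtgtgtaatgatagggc
Gclm: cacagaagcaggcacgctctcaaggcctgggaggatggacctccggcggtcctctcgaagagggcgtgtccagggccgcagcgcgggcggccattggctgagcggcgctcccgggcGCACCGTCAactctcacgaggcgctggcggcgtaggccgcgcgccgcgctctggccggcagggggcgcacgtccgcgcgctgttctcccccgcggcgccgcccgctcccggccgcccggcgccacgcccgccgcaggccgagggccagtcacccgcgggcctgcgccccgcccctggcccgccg

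Of the factors that bind these cores, Atf4 read 9.46, 9.51 and 9.40 on iPS and 9.11, 9.40 and 9.46 on ntES arrays. It differed by -0.14 ± 0.10 (log2, SE; limma, adjusted p = 0.451). Nfe2l2, the gene of Nrf2, read 10.50, 10.48 and 10.34 on iPS and 10.61, 10.83 and 11.04 on ntES arrays. All ntES values lay above all iPS values, and the difference was 0.39 ± 0.11 (log2, SE; adjusted p = 0.0513, limma). It passed after quantile normalization, at 0.42 (adjusted p = 0.000128, limma), and without ntES replicate 1, at 0.50 (0.00694). Keap1, which sends Nrf2 to degradation, differed by 0.09 ± 0.08 (log2, SE; adjusted p = 0.513, limma).

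Genes around the members were taken in 6 lists by function, with the members left out. They named 156 measured genes, 13 of which were in 2 or more lists. Of these 156, 18 were called higher and 15 lower in ntES cells, 21.2% in all, beside 11.4% of the 19308 genes of the table (5.25% higher and 6.16% lower). Among the 9683 genes with a mean level at or above that of the median probe set, 682 were called higher and 1037 lower. Calls were thus more frequent at that level. Each of the 6 lists had a mean level above that of the median probe set on every array. The part of level in the share of calls was not tested. A gene with several probe sets was represented by the brightest. The median difference of the 156 genes was 0.04, as was that of all genes (0.04).

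Of 29 measured genes of the methionine cycle and one-carbon metabolism, 3 were called higher and 1 lower in ntES cells, with a median of -0.01. The higher genes included Bhmt, which remethylates homocysteine with betaine, as Mtr does with folate. Bhmt read 7.03, 7.16 and 7.24 on iPS and 7.95, 7.77 and 7.70 on ntES arrays, a difference of 0.67 ± 0.09 (log2, SE; limma, adjusted p = 0.00167), and its 2 other probe sets differed by 0.14 and 0.37. Its close copy Bhmt2 was higher by 0.30 ± 0.08 (adjusted p = 0.0339), and the signals of the 2 copies may not be separate. Mtap, which salvages methionine from spent S-adenosylmethionine, was higher by 0.35 ± 0.10 (adjusted p = 0.0432). Psat1, an enzyme of serine synthesis, was lower, at -0.59 ± 0.12 (log2, SE; limma, adjusted p = 0.00959). Mtap and Bhmt2 lost their calls when iPS replicate 1, 2 or 3 or ntES replicate 2 was left out (adjusted p from 0.0653 to 0.203), with median centring (0.0954 and 0.0665) or with the replicate block (0.0975 and 0.178). Psat1 lost its call without iPS replicate 1 (0.0656) or 2 (0.0524) or ntES replicate 2 (0.0636). The count was 1 without iPS replicate 1 or 2 or ntES replicate 2, 2 without iPS replicate 3, and 7 without ntES replicate 3. With 1 array left out, calls over all probe sets moved too, between 1014 and 5044. This holds beside the counts of the lists below as well.

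The list on cysteine use and sulfide oxidation held the 2 largest differences among the 6 lists. Of its 21 measured genes, 3 were called higher and 2 lower, with a median of 0.05. Papss2, which makes the activated sulfate used for sulfation, read 7.96, 7.77 and 7.63 on iPS and 8.67, 8.88 and 9.10 on ntES arrays, a difference of 1.10 ± 0.12 (log2, SE; adjusted p = 0.000422, limma). Kyat3, an aminotransferase that also cleaves cysteine conjugates, read 7.44, 7.49 and 7.42 on iPS and 8.24, 8.31 and 8.42 on ntES arrays, a difference of 0.87 ± 0.08 (adjusted p = 0.000143). In both genes each ntES array lay above each iPS array. Cdo1, which commits cysteine to taurine and sulfate, was higher by 0.52 ± 0.10 (adjusted p = 0.00665, and 0.051 without iPS replicate 2). Mpst, which makes sulfide from mercaptopyruvate, differed by -0.29 ± 0.08 (adjusted p = 0.0468). Mpst lost its call when iPS replicate 1, 2 or 3 or ntES replicate 2 was left out (0.12 to 0.2), or with the replicate block (0.207), where 3 genes of the list were called. The count was 3 without iPS replicate 1 or 3 or ntES replicate 2, and 2 without iPS replicate 2.

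Carriers of cystine, cysteine and methionine were called lower more often than higher. Of 21 measured, 6 were lower and 1 higher in ntES cells, 33.3% in all, beside 11.4% of all genes (6.16% lower and 5.25% higher). A difference above 0 was seen in 5, with a median of -0.17, beside 59.9% of all genes. Of all genes with a mean level at or above that of the median probe set, 46.5% were above 0. Slc1a5, a carrier of neutral amino acids such as glutamine and cysteine, read 10.51, 10.48 and 10.29 on iPS and 9.31, 9.58 and 9.79 on ntES arrays. Its difference was -0.86 ± 0.12 (log2, SE; adjusted p = 0.00157, limma). Ctns, which exports cystine from lysosomes, differed by -0.63 ± 0.10 (adjusted p = 0.00277) and Slc7a6, a carrier of basic and neutral amino acids, by -0.60 ± 0.11 (adjusted p = 0.00531). Slc1a1, a glutamate carrier that also takes up cysteine, was the 1 called higher, at 6.88, 7.04 and 7.13 on iPS and 7.61, 7.77 and 7.60 on ntES arrays (limma, adjusted p = 0.00173). Slc3a2, the partner chain of Slc7a11, differed by -0.33 and was not called (adjusted p = 0.106); it was named after its values were seen. The count was 4 without iPS replicate 1 or 2 or ntES replicate 2, and 12 without ntES replicate 3.

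Of 28 measured genes of glutathione turnover and recycling, 3 were called higher and 3 lower, with a median of 0.14. Abcc5, an exporter of organic anions, was higher by 0.69 ± 0.09 (log2, SE; adjusted p = 0.00112, limma), Pgd, which supplies NADPH, by 0.66 ± 0.13 (adjusted p = 0.00974), and Cndp2, a dipeptidase that splits cysteinylglycine, by 0.54 ± 0.11 (adjusted p = 0.0115). Slc25a39, which brings glutathione into mitochondria, differed by -0.55 ± 0.12 (adjusted p = 0.0177). Slc25a39 lost its call without iPS replicate 1 (0.0963) or 2 (0.0912) or ntES replicate 2 (0.0908), Pgd without iPS replicate 1 (0.0516) or ntES replicate 2 (0.0587), and Cndp2 without ntES replicate 2 (0.0664). The count was 2 without iPS replicate 1, 3 without iPS replicate 2, 1 without ntES replicate 2 and 10 without ntES replicate 3.

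Of 28 measured Nrf2 regulators and targets, 6 were called higher and 1 lower in ntES cells, with 18 above 0 and a median of 0.10. Gpx2, a glutathione peroxidase, and Cbr3, a carbonyl reductase, were higher by 0.80 ± 0.08 (log2, SE; adjusted p = 0.000265, limma) and 0.61 ± 0.08 (adjusted p = 0.000777). Ugdh, which makes UDP-glucuronate, was higher by 0.71 ± 0.14 (adjusted p = 0.00843), and Pgd was counted here too. Gclm, also known as a target of Nrf2, had the opposite sign (-0.41) and Gclc and Slc7a11 overlapped between the groups. The count was 4 without iPS replicate 1 or iPS replicate 2 and 3 without ntES replicate 2.

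Of 42 measured genes of Atf4 and amino acid stress, 3 were called higher and 4 lower, with a median of 0.02. The largest differences were those of Eif2ak2, the kinase activated by double-stranded RNA, at -0.79 ± 0.10 (log2, SE; adjusted p = 0.00103, limma), and of Wars, the tryptophanyl-tRNA synthetase, at -0.71 ± 0.10 (adjusted p = 0.00184). Both are also known as interferon-induced genes. Eif2ak1, the heme-sensitive kinase, differed by -0.46 ± 0.10 (adjusted p = 0.0161), and Psat1 was counted here too. Eif2ak1 lost its call without iPS replicate 1 (0.0831) or 2 (0.103) or ntES replicate 2 (0.084). The count was 2 without iPS replicate 1 or 2 or ntES replicate 2, 11 without ntES replicate 1 and 14 without ntES replicate 3.

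**Figure D3:**
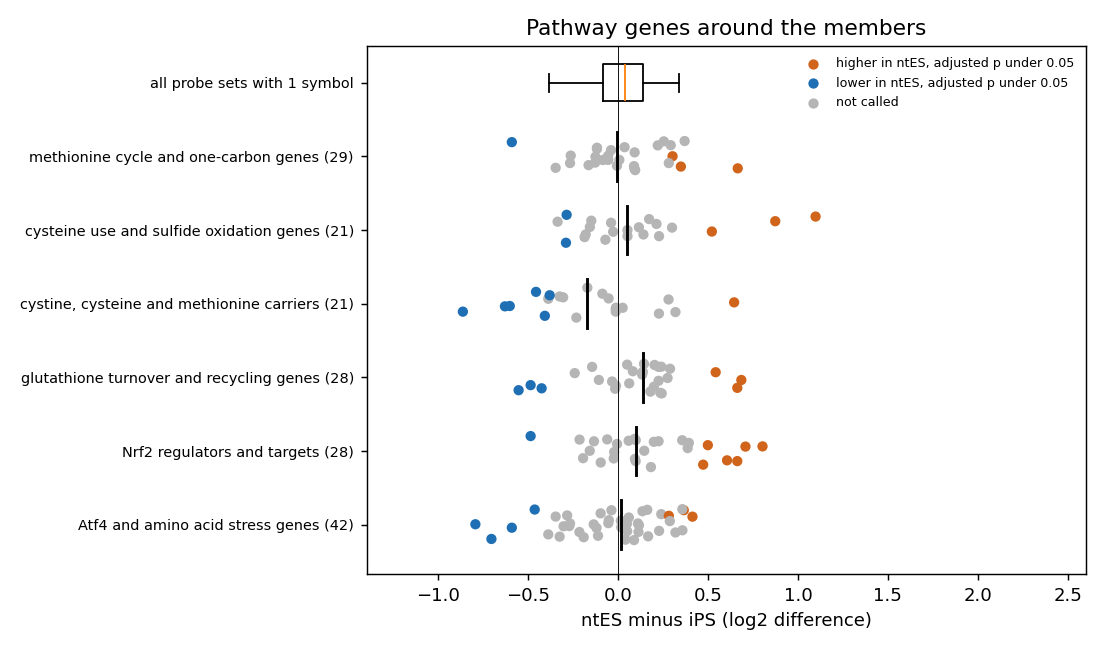
Difference between ntES and iPS cells (horizontal axis, log2) of each measured gene of the 6 lists, with the number of genes in brackets, called genes in orange (higher) or blue (lower) and the list median as a black bar. The box shows the quartiles and median of all probe sets with 1 symbol and its whiskers the 5th and 95th percentiles; the carriers lie furthest to the left, with a median of -0.17.

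The place of Cth in the genome was then examined. Gene order came from the GRCm38.p6 gene table, used for order only. Of the 5 measured genes on each side of Cth on chromosome 3, all 10 had a difference above 0, with a median of 0.26, and 2 were called higher; Lrrc7, Lrriq3 and Mir186, uncalled, changed sign under quantile normalization or median centring. Ankrd13c, the next gene on 1 side, read 9.47, 9.51 and 9.30 on iPS and 10.05, 10.28 and 10.48 on ntES arrays, a difference of 0.84 ± 0.11 (log2, SE; adjusted p = 0.00123, limma). Srsf11, a splicing factor and the gene after it, was higher by 0.47 ± 0.11 (adjusted p = 0.018). Lrrc40 and Depdc1a on the same side differed by 0.41 and 0.31 (adjusted p = 0.0599 and 0.0844), with all ntES arrays above all iPS arrays, and Lrrc7 by 0.02. On the other side Ptger3, Mir186, Zranb2, Negr1 and Lrriq3 differed by 0.22, 0.10, 0.34, 0.10 and 0.03, none of them called. Srsf11 lost its call when iPS replicate 1, 2 or 3 or ntES replicate 2 was left out (0.0593 to 0.0698). Without ntES replicate 1, Zranb2 (0.0088), Lrrc40 (0.00667) and Depdc1a (0.0215) passed.

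The higher levels reached well beyond these neighbours. Among the 100 measured genes nearest the distal end of chromosome 3, from Dapp1 on, 90 had a difference above 0, against 428 of the other 811 genes of the chromosome (52.8%) and 59.9% of all genes. In this stretch 30 genes were called higher and 1 lower. Among the other 811 genes 41 were called higher and 96 lower, and among all genes 5.25% and 6.16%. The stretch had 42 genes with a mean level at or above that of the median probe set. All 42 had a difference above 0, with a median of 0.47, while 46.5% of all genes of that level did, with a median of -0.02. Of the other genes of the chromosome at that level, 154 of 406 (37.9%) lay above 0, with a median of -0.09. Without Cth the median of the other 41 in the stretch was also 0.47, and after quantile normalization and median centring it was 0.51 and 0.41. Kyat3 lies in the same stretch, 68 measured genes from Cth. The stretch was chosen after its values were seen, and these counts describe it and test nothing. Its edge at Dapp1 is that of a group of 20 genes. In the next group, from Ppa2 to Lamtor3, 3 were called higher and 9 lower, with a median of -0.12. The higher ones, Ddit4l, H2az1 and Dnajb14, lie at the side of the stretch. In the group after it, from Cfi to Arhgef38, 0 were called higher and 6 lower, with a median of -0.13. The Cth difference of 2.23 lies far above the median of 0.47, but Cth was chosen for its large difference. The cause of the higher levels in this stretch was not tested.

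**Figure D4:**
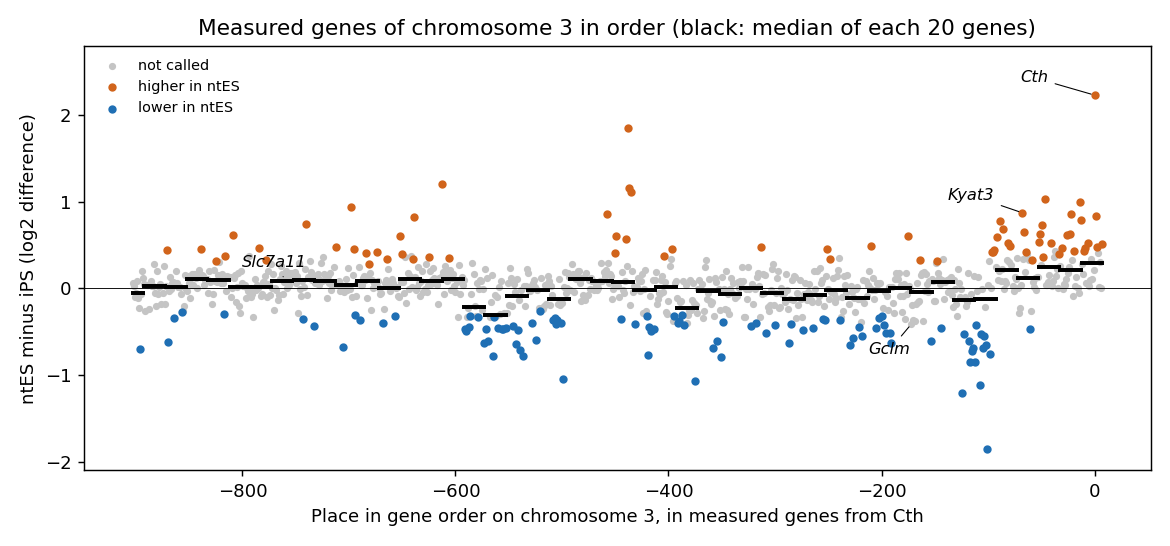
Difference between ntES and iPS cells (vertical axis, log2) of the 911 measured genes of chromosome 3 in gene order, with the horizontal axis giving the place from Cth in measured genes, called genes in orange or blue, and black bars giving medians of consecutive groups of 20 genes from the distal end. The 5 groups nearest the distal end, on the right, have medians between 0.12 and 0.29, and Cth lies above all other genes of the chromosome at 2.23.

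Near the other members, the medians of the neighbours lay closer to 0, while single neighbours differed in both directions. The 10 measured neighbours of Mtr, Mat2b, Cbs, Gclc, Gclm and Gss had medians between -0.06 and 0.04, and at most 2 of the 10 were called. Those called were Pde9a (-0.55) and Slc37a1 (-0.42) near Cbs, both lower, and F3 (0.60) near Gclm and Procr (0.31) near Gss, both higher. For Slc7a11, near the other end of chromosome 3, 9 of 10 neighbours lay above 0, with a median of 0.12 and none called. Mtr, the other called member, had no called gene among its 10 neighbours on chromosome 13.

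The genes most like Cth over the 6 arrays were found by Pearson correlation over all probe sets with 1 symbol. These were Kyat3 (r = 0.9998), Mcf2 (0.9996), Pramel20 (0.999), Sh3tc1 (0.9987) and Phka1 (0.9986), with differences of 0.87, 2.18, 1.64, 0.34 and 0.59. With 6 arrays in 2 groups such values rest on the group difference and on the shared spread of each array. Over deviations from the group means, the closest were Adal, Dnmt3a, Ube2d2a, Map7d3 and Kdm2b (r from 0.9985 to 0.9995), whose differences had both signs, from -0.82 to 0.59. Among the members, deviations correlated with those of Cth at 0.97 for Mtr, 0.93 for Gclm and 0.05 for Slc7a11, over the same 6 arrays.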

How the data were processed

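The deposited table holds log2 expression values of 23344 probe sets on 6 arrays, a unit taken from the values, which the authors' labels do not state. Per the submitters' processing notes, GCOS 1.4 was used, with background handling, normalization, probe set summary and build not given in the sources used here. Groups came from the sample titles, and precision is limited by the number of arrays. Gene names are those of the platform annotation, used where it gave 1 symbol (20746 of 23344).

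All probe sets were fitted with limma 3.58.1 (lmFit, eBayes) in R 4.3.3, ntES minus iPS, without covariates and with Benjamini-Hochberg adjustment over the table. The code was tested on simulated data. Figures used Python 3.11.15 with matplotlib 3.10.9. Members, gene lists and tests were chosen with earlier results of these data known, and list genes were named by a set rule: up to 4 called genes of largest difference per list. Other settings tried were quantile normalization, median centring, a filter on dim probe sets, probe sets with 1 symbol, array weights, a threshold of 0.01, trended robust priors, an unmoderated test, the replicate number as a block, the mean of a gene's probe sets, and each array left out. The log transform for linear values was not needed.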

Additional observations from a re-analysis of the deposited data

How the results depend on the processing

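The Cth difference kept its direction in all 14 alternative fits, between 2.12 and 2.33, and among the members only Mat2b, uncalled and near 0, changed sign, to 0.0424 after quantile normalization and within -0.0816 to 0.0354 with 1 array left out. No difference of a named list gene changed sign. Of the neighbours of Cth, 3 uncalled ones with differences near 0 changed sign: Lrrc7 to -0.0243 after quantile normalization, -0.0404 after median centring and -0.0573 to 0.099 with 1 array left out, Lrriq3 to -0.0257 after median centring, and Mir186 to -0.0012 after quantile normalization. Counts of calls moved more. Main counts were 2643 probe sets, 2 members, and 4, 5, 7, 6, 7 and 7 genes of the lists on the methionine cycle, cysteine use, carriers, glutathione turnover, Nrf2 and Atf4. Quantile normalization gave 7035, 5, and 14, 10, 15, 14, 13 and 22 in the same order. Array weights gave 13147, 6, and 20, 17, 16, 20, 19 and 30, but put a weight of 10.9 on ntES replicate 2 and 0.218 to 1.99 on the others. The unmoderated test gave 703, 1, and 0, 2, 1, 1, 2 and 1. Of the first of these lists 12 genes had an unadjusted p under 0.05 with limma. In the unmoderated test Bhmt, Papss2, Slc1a5, Slc1a1, Ctns and Slc7a6 were among the genes that lost their calls. So were Eif2ak2, Wars and, next to Cth, Ankrd13c, with adjusted p from 0.055 to 0.103 over these genes. A threshold of 0.01 gave 1150 probe sets, 1 member, 2 methionine cycle genes, 3 of cysteine use, 2 of turnover and 3 of Atf4. Median centring gave 2 methionine cycle genes, and trended robust priors gave 10 of turnover and 11 of Atf4. The range over arrays left out was 1014 to 5044 probe sets, 1 to 3 members, 1 to 7 methionine cycle genes, 2 to 7 of cysteine use, 4 to 12 carriers, 1 to 10 of turnover, 3 to 10 of Nrf2 and 2 to 14 of Atf4. With the replicate block 1983 probe sets were called, 3 members with Gclm added, 2 methionine cycle genes and 3 of cysteine use. The deviations of arrays with the same replicate number correlated at -0.43, -0.10 and -0.72. The SD over probe sets was 1.69, 1.69 and 1.59 on iPS and 1.51, 1.61 and 1.74 on ntES replicates 1 to 3. These spreads enter the deviations, so the correlations cannot show whether the numbers pair the arrays. The cause of the moves in the counts of calls was not tested. The Slc7a11 difference was 0.002 after quantile normalization.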
